A study of Mus musculus with 23 samples.

Results

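Imprinted genes are genes of which the cell reads mainly the copy from a single parent. They lie in clusters, each governed by a control region whose DNA methylation is laid down in the egg or the sperm and then copied at every cell division, so that the paternal and the maternal chromosome carry different marks. In the brain many of them act in growth, feeding, sleep and social behaviour, and loss of the paternal genes around Ndn and Snrpn causes Prader-Willi syndrome, while loss of maternal Ube3a causes Angelman syndrome. The 45 imprinted genes described here were named by symbol from general knowledge of mouse imprinting, with earlier results of these data known. Of them, 43 were rows of the count table, which held 39017 genes in all. No row matched Kcnq1ot1 or Peg13. Of the 43, 23 were grouped as read mainly from the paternal copy and 14 as read mainly from the maternal copy. The other 6 were grouped as mixed, with isoforms or tissues that differ (background knowledge). This grouping is by gene and not specific to cortex, where a gene may be read from both copies. The counts do not separate the parental copies, so each value is the sum of both.

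RNA was sequenced after ribosomal RNA depletion from the cortex of 22 mice. H3f3a encodes the histone variant H3.3, and the mice were wild type (WT, +/+) or heterozygous for a change of its glycine 34. In G34R/+ mice it is replaced by arginine, in G34V/+ mice by valine and in G34W/+ mice by tryptophan. The 10-week cortices came from 6 WT mice and from 3 with G34R, 3 with G34V and 2 with G34W, all labelled male except G34W replicate 2. The cortices from postnatal day 7 came from 4 WT and 4 G34R mice, 2 males and 2 females of each. The series takes altered recruitment of the DNA methyltransferase DNMT3A by this residue as its subject, and DNA methylation is what marks imprinted genes. The labels give neither strain nor litter, and no other allele or treatment.

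Libraries held 32.3 to 90.1 M counts (M, mega) at 10 weeks and 28.4 to 53.5 M at day 7. H3f3a itself was at 41.5 to 49.8 CPM (counts per M counts, scaled by the TMM method over all animals) in the WT animals at 10 weeks, and none of the 3 substitutions differed from WT by edgeR's quasi-likelihood test (adjusted p = 0.687, 0.464 and 0.541 for G34R, G34V and G34W). A heterozygous substitution need not change the level, so this does not check the genotype labels. In the day-7 animals it averaged 60.7 ± 1.65 CPM with G34R against 72.5 ± 3.03 CPM in WT (SD, n = 4 each, edgeR adjusted p = 0.0428). The title of G34W replicate 2 begins with M, as the titles of males do, while its label says female. Its library held Xist, the RNA of the inactive X chromosome, at 153 counts per M counts, and Xist was at 153 to 230 in the 5 libraries labelled female and at most 0.684 in the 18 labelled male. Cortical excitatory neuron markers were abundant in every animal, summing to 1873 to 2336 CPM over the 10-week animals and 878 to 1103 CPM at day 7. Hypothalamic markers, in a region where several imprinted genes are strongly expressed, summed to between 0.816 and 3.4 CPM in all animals. Choroid plexus markers varied widely between animals, from 14.4 to 1051 CPM at 10 weeks. The 10-week libraries were divided by a chosen cut of 1.1% into a set with a lower and a set with a higher share of mitochondrial protein-coding counts. Shares ran from 0.885% to 1.36%, and the nearest to the cut were 1.03% in WT and 1.12% in G34V. All G34R libraries are in the lower set, all G34V and G34W libraries in the higher, and WT libraries in both. Calls against WT are therefore also given within a set. G34R shares no set with G34V or G34W, so those comparisons could not be made within a set.

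Promoter sequences were available from RefSeq (GRCm38.p6, 250 bases before to 50 bases after the start) for 37 of the 45 genes. Those of Ndn, which had the smallest adjusted p of the imprinted genes in G34R and in G34V, of its neighbours Magel2 and Mkrn3, and of Rasgrf1, the other gene that fell in both, are shown because DNA methylation acts at CG dinucleotides, which are in capitals.
Ndn, chr7:62348027-62348326, plus strand: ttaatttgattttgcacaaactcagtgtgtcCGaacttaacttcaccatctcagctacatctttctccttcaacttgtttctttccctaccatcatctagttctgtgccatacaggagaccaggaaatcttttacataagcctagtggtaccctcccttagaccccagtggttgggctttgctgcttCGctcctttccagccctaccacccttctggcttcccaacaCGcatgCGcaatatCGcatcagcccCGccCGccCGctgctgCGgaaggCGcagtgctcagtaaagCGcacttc
Magel2, chr7:62376729-62377028, plus strand: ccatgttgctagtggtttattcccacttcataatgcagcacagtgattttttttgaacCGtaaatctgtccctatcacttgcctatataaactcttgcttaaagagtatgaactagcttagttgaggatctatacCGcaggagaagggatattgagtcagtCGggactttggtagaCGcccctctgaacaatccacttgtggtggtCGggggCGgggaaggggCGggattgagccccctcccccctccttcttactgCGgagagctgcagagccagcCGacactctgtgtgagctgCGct
Mkrn3, chr7:62420104-62420403, minus strand: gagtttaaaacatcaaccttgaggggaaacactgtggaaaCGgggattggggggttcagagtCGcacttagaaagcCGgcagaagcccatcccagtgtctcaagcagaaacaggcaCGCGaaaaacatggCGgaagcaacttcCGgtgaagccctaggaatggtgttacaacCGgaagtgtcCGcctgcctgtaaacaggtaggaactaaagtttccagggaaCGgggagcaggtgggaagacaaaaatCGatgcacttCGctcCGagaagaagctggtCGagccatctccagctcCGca
Rasgrf1, chr9:89909525-89909824, plus strand: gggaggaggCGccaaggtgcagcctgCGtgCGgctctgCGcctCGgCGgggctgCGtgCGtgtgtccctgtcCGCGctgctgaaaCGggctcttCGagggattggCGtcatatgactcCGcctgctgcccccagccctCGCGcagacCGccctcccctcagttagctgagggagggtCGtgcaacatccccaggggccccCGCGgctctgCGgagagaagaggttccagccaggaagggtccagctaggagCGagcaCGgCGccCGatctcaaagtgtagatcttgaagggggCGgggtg
The Ndn promoter holds 11 CG dinucleotides, that of Magel2 10, that of Mkrn3 15 and that of Rasgrf1 26. The median was 13 over the 53 promoters of the imprinted genes and 7 over all 32851 promoters of the same length. The letters TGCCGC, the core bound by the imprint-protecting zinc finger protein ZFP57, were searched on both strands. They were in 26.4% of the imprinted genes' promoters and 11.6% of all promoters, and in none of the 4 shown. The promoter that Snrpn and Snurf share and overlapping promoters of Mest were each counted separately. The letters include a CG, and the imprinted genes' promoters had the higher median of CG dinucleotides. Such a match is a description of the letters only, and the files hold no methylation data.

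In the Prader-Willi and Angelman cluster on chromosome 7, Ndn fell in G34R and G34V at 10 weeks and the other members did not pass in either. Ndn encodes necdin, a MAGE family protein of postmitotic neurons. In WT at 10 weeks it was at 87.5 CPM in the lowest animal, 113 CPM at the median and 122 CPM in the highest. The 3 G34R animals were at 62.3, 51.3 and 62.3 CPM, all below every WT animal. In the 3 G34V animals it was at 67.5, 67.9 and 71.7 CPM, also below every WT animal. The 2 G34W animals were at 112 and 84.0 CPM, and overlapped WT. Ndn fell in G34R to 53.5% of the WT mean, or by log2 -0.90 (SE 0.106, edgeR adjusted p = 5.27e-05). In G34V it fell to 62.9% of WT, or by log2 -0.67 (SE 0.105, edgeR adjusted p = 0.00133). For G34W the log2 difference was -0.16 (SE 0.119, edgeR adjusted p = 0.499). In bulk tissue, fewer cells that express a gene and less RNA per cell cannot be told apart.

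The animal numbers in the sample titles fall into runs, and each mutant shares a run with WT animals. In the runs that hold G34R, the WT animals were at 119 and 122 CPM for Ndn. In the G34V run they were at 87.5 and 104 CPM, the lowest of the WT group, and in the G34W run at 116 and 111 CPM. With the runs as a block the Ndn difference in G34V was -0.47 with an edgeR adjusted p of 0.0513, the only 1 of 20 alternatives that ended this call. Ndn in G34R passed in 20 of 20 alternatives, with log2 differences between -1.03 and -0.82. Excitatory neuron markers summed to 2063 to 2161 CPM in WT, 1873 to 2092 CPM in G34R and 1969 to 2197 CPM in G34V. Interneuron markers summed to 570 to 630 CPM, 568 to 577 CPM and 544 to 582 CPM in the same groups. Oligodendrocyte markers were lower in all 3 mutants, at 1972 to 3046 CPM against 3188 to 4174 CPM in WT, and microglial markers were above every WT animal (189 to 203 CPM) in all 3 mutants, at 268 to 290 CPM in G34R, 207 to 261 CPM in G34V and 209 to 223 CPM in G34W. Their part in the Ndn difference was not tested.

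**Figure D1:**
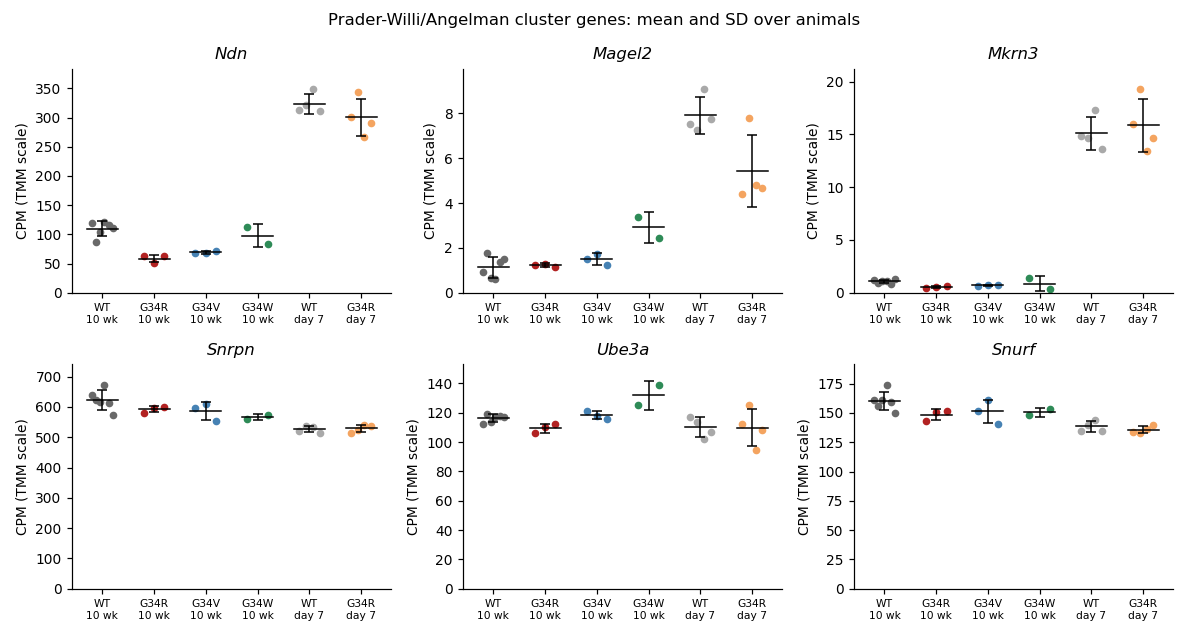
Level of 6 genes of the Prader-Willi and Angelman cluster in CPM (linear axis from 0) in each of the 22 animals, by group, with the mean and SD as black lines. Ndn in G34R and G34V at 10 weeks lies at 51.3 to 71.7 CPM, below the lowest WT animal at 87.5 CPM, while at day 7 the groups overlap.

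Of 6 members of this cluster tested at 10 weeks, 1 was lower and 0 were higher in both G34R and G34V, with median log2 differences of -0.10 and -0.08. Of all genes tested, 2.66% were lower and 2.95% higher in G34R, and 2.68% and 1.57% in G34V. Magel2, another MAGE gene, starts 26.7 kb beyond Ndn, Mkrn3, a ubiquitin ligase that restrains puberty, lies 67.3 kb away, and Peg12 112 kb away, all paternally expressed. Magel2 in G34R was at 1.26, 1.30 and 1.14 CPM, within the WT range of 0.623 to 1.76 CPM (median 1.15 CPM). In G34V it was at 1.51, 1.75 and 1.24 CPM, within that range too. Mkrn3 was at 0.486, 0.509 and 0.643 CPM in G34R and 0.623, 0.764 and 0.727 CPM in G34V, below the 6 WT animals, whose lowest was 0.864 CPM. Its log2 differences of -1.01 (SE 0.322) and -0.63 (SE 0.313) did not pass (edgeR adjusted p = 0.0834 and 0.355). With DESeq2, limma-voom, sex as a covariate or only the compared groups, Mkrn3 passed in G34R (adjusted p = 0.04, 0.0488, 0.0163 and 0.0286). Snrpn and Snurf encode a splicing protein and a small nuclear protein from shared transcripts, and Snrpn lies 2342 kb from Ndn. They were at 95.2% and 93% of WT in G34R and did not pass (edgeR adjusted p = 0.543 and 0.328). Ube3a, the maternally expressed ubiquitin ligase, was at 94.3% of WT in G34R (edgeR adjusted p = 0.377).

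In G34W Magel2 was the gene of this cluster that passed with edgeR, and it rose. Its 2 animals were at 3.40 and 2.44 CPM, both above the highest WT animal at 1.76 CPM. The log2 fold change was 1.38 (SE 0.323, edgeR adjusted p = 0.0396). The call rests on few counts and passed in 10 of 19 alternatives. Without G34W replicate 1 the adjusted p was 0.268, without WT replicates 1, 3 and 4 in turn 0.0673, 0.0574 and 0.0547, with the runs of animal numbers as a block 0.377, and within the library set that holds G34W 0.304. Magel2 is highly expressed in the hypothalamus. Hypothalamic markers summed to 3.40 CPM in G34W replicate 1 and 1.24 CPM in replicate 2, against 1.17 to 2.43 CPM in WT. Among these markers, Hcrt was at 0 in the 2 G34W animals. Of the 2 G34W animals, the one with more Magel2 had more of these markers, and the other had markers within the WT range. WT replicates 1 and 2 had these markers at 2.41 and 2.43 CPM and Magel2 at 0.933 and 1.76 CPM. Striatal markers were at 338 to 417 CPM in G34W and 179 to 413 CPM in WT. The part of either in the Magel2 difference was not tested. Ube3a was at 125 and 139 CPM in G34W, above the 6 WT animals at 112 to 119 CPM. Its log2 difference of 0.18 (SE 0.0548) did not pass with edgeR (adjusted p = 0.105), and DESeq2 called it (adjusted p = 0.0194).

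Over all 41 imprinted genes tested in G34R against WT at 10 weeks, 0 were higher and 3 lower, which is 7.32% called. Of all 21274 genes tested, 5.61% were called, 2.95% higher and 2.66% lower. The imprinted genes' median log2 difference was -0.06 and that of all genes was -0.00. In G34V again 0 were higher and 3 lower, 7.32% against 4.25% of all genes (1.57% higher and 2.68% lower), with a median of 0.01 beside 0.01. For G34W 3 were higher and 0 lower, 7.32% against 1.61% of all genes (0.564% higher and 1.05% lower), with a median of 0.06 beside 0.01. Peg12 and Phlda2 were too low to test at 10 weeks. The 3 comparisons share the 6 WT animals, so their values are not independent of each other.

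**Figure D2:**
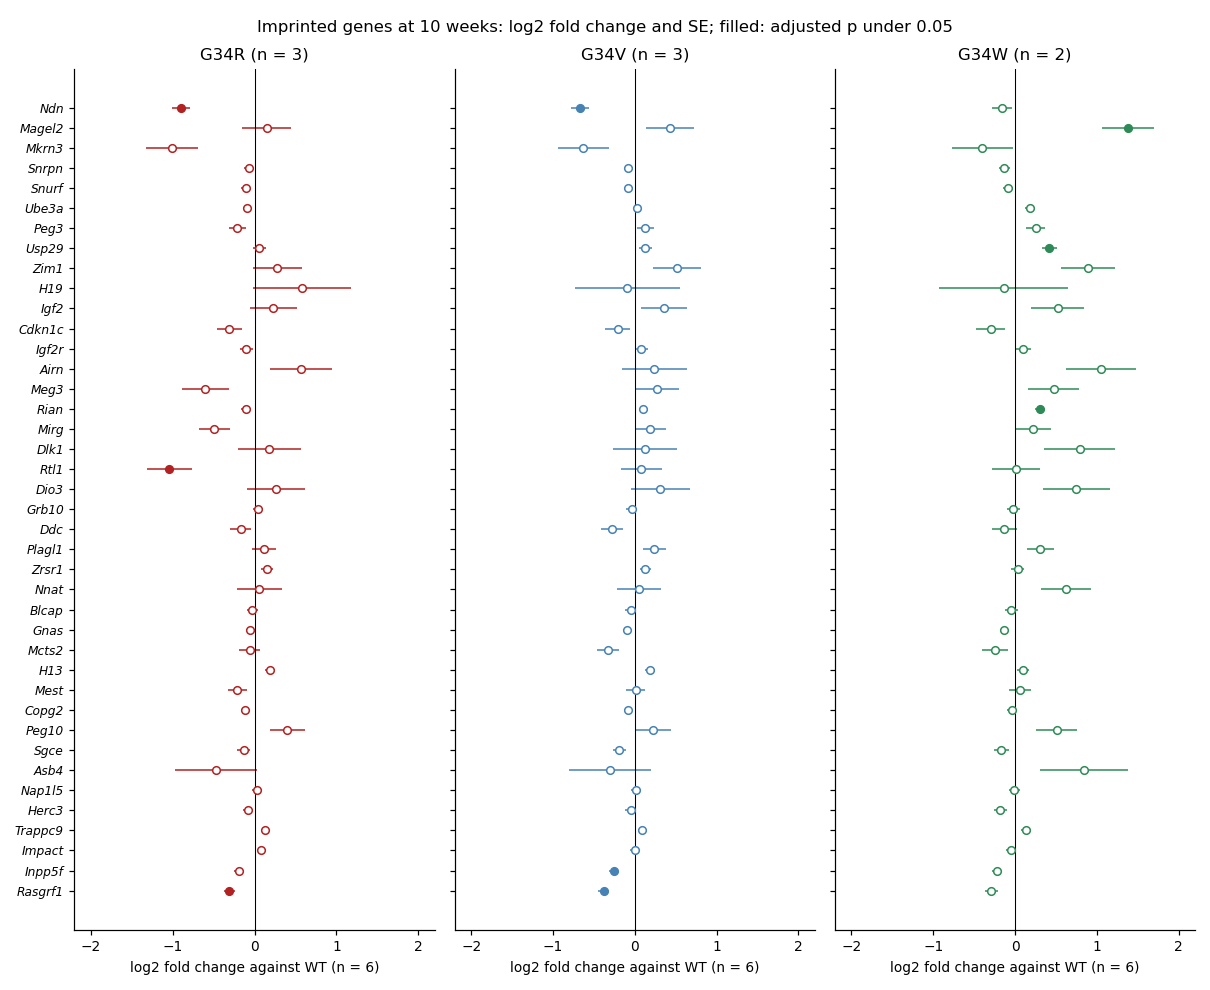
Log2 fold change against WT (x axis) with SE as bars for 40 of the 41 imprinted genes tested at 10 weeks, in cluster order, for G34R (n = 3), G34V (n = 3) and G34W (n = 2) against 6 WT animals. Filled points passed an adjusted p of 0.05, which is 3 genes in each panel. Calcr, under 1 CPM in every 10-week animal, is left out. Its log2 difference of -3.14 in G34V, the lowest of all, lies beyond the axis and did not pass.

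Rasgrf1, a paternally expressed guanine nucleotide exchange factor that links calcium signals to Ras in neurons, fell in both G34R and G34V. In WT it was at 235 CPM in the lowest animal, 261 CPM at the median and 275 CPM in the highest. The G34R animals were at 219, 195 and 205 CPM, all below WT. The G34V animals were at 200, 201 and 187 CPM, again below all WT animals. The log2 fold change was -0.31 in G34R (SE 0.0678, edgeR adjusted p = 0.00852) and -0.38 in G34V (SE 0.068, edgeR adjusted p = 0.00251). In G34W it was at 190 and 229 CPM, below all WT animals as well, with a log2 difference of -0.29 (SE 0.0787) that did not pass (edgeR adjusted p = 0.0743). It passed with DESeq2 (adjusted p = 0.0147) and, at -0.43, without G34W replicate 2, the female (adjusted p = 0.0219). Sex as a covariate sets the same animal aside and gave the same difference (adjusted p = 0.0223). The G34R call was lost without G34R replicate 2 (adjusted p = 0.0698), and the G34V call passed in 20 of 20 alternatives. The direct differences between substitutions did not pass, at 0.07 (SE 0.0773) for G34R against G34V, -0.02 (SE 0.0865) for G34R against G34W and -0.10 (SE 0.0864) for G34V against G34W.

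Inpp5f encodes a phosphoinositide phosphatase, and a brain variant of it is read from the paternal copy. WT animals ran from 92.2 CPM to 102 CPM with a median of 95.1 CPM. G34V animals were at 77.4, 86.1 and 78.3 CPM, below all WT animals. The log2 fold change in G34V was -0.26 (SE 0.0565, edgeR adjusted p = 0.0118). Values in G34R (89.0, 84.2 and 80.8 CPM) and in G34W (82.7 and 83.4 CPM) were also below every WT animal, with log2 differences of -0.19 (SE 0.0563, edgeR adjusted p = 0.0583) and -0.22 (SE 0.0656, edgeR adjusted p = 0.108) that did not pass. DESeq2 called both (adjusted p = 0.0215 and 0.0381), and limma-voom and the CPM filter called that in G34R (0.038 and 0.0444). The G34V call was lost without G34V replicate 1 or replicate 3 (adjusted p = 0.0809 and 0.059), with the runs as a block (0.0554) and within its library set (0.0706).

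**Figure D3:**
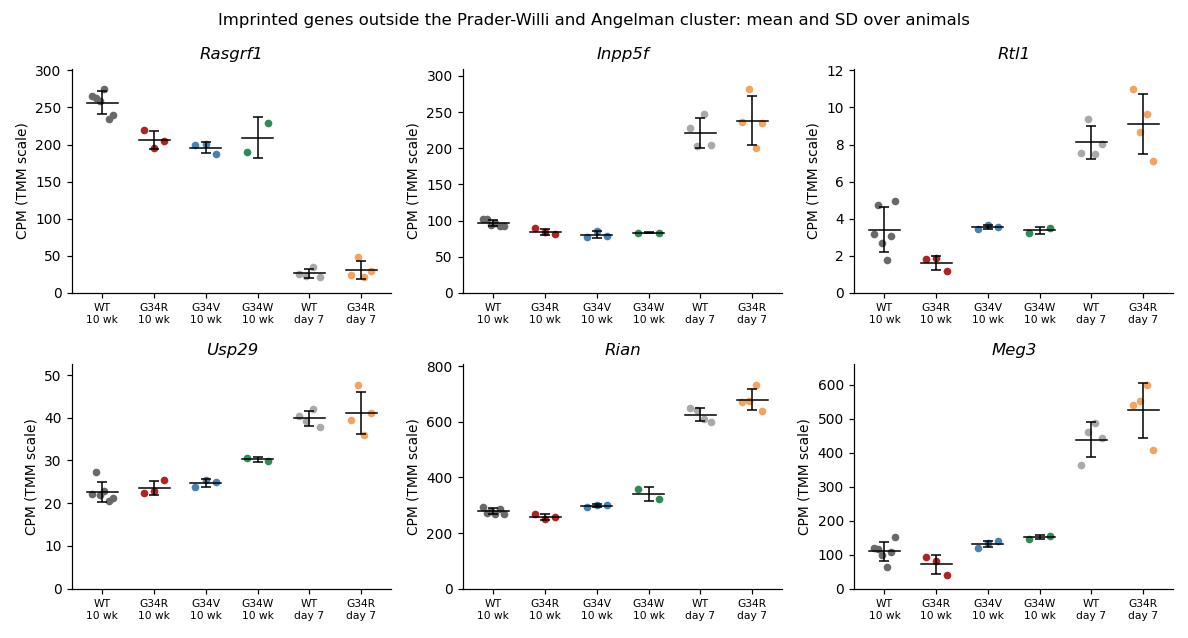
Level in CPM (linear axis from 0) of Rasgrf1, Inpp5f, Rtl1, Usp29, Rian and Meg3 in each of the 22 animals, with the mean and SD as black lines. Rasgrf1 lies below the WT range of 235 to 275 CPM in all 8 mutants at 10 weeks, and Meg3 spreads from 63.4 to 151 CPM within WT at 10 weeks.

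The Dlk1-Dio3 cluster on chromosome 12 reads the protein genes Dlk1, Rtl1 and Dio3 from the paternal copy and the long non-coding RNAs Meg3, Rian and Mirg, which carry many small RNAs, from the maternal copy. Rtl1, derived from a retrotransposon, was at 1.79 CPM in the lowest WT animal, 3.12 CPM at the median and 4.93 CPM in the highest. In G34R it was at 1.82, 1.87 and 1.19 CPM, so 2 animals lay just above the lowest WT animal and 1 below it, and all 3 lay below the other 5. Its log2 fold change was -1.04 (SE 0.272, edgeR adjusted p = 0.0323). The call passed in 11 of 20 alternatives. It was lost without any 1 of the 3 G34R animals (adjusted p = 0.0867, 0.0739 and 0.171) and without WT replicate 2 or 6 (0.0522 and 0.0503). It was also lost with limma-voom (0.0503), with only the compared groups (0.0766), with the runs of animal numbers as a block, where the difference was -0.49 (adjusted p = 0.432), and within the library set that holds G34R, where it was -0.55 (adjusted p = 0.334).

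Rian rose in G34W. Its 6 WT animals lay between 268 and 294 CPM (median 274 CPM), and the 2 G34W animals were at 359 and 323 CPM, above all of them. The log2 fold change was 0.30 (SE 0.0579, edgeR adjusted p = 0.0169). It was lost without G34W replicate 1 (adjusted p = 0.193), with limma-voom (0.0733), with only the compared groups (0.0684), with the runs as a block (0.127) and within its library set (0.0696). In G34R Rian was at 268, 249 and 257 CPM, and in G34V at 292, 302 and 300 CPM, and neither passed (edgeR adjusted p = 0.263 and 0.356). All 6 tested members of the cluster had positive log2 differences in G34W, with a median of 0.38, of which Rian alone passed. In G34V all 6 were positive too, with a median of 0.16, and none passed. The median over all genes was 0.01 in both. In G34R 4 of the 6 were negative, with a median of -0.30 and Rtl1 alone passing. All G34V and G34W libraries are in the higher mitochondrial set and all G34R libraries in the lower. Mutant and library set cannot be told apart between them.

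Meg3 varied as much between WT animals as between groups. It was at 63.4 to 151 CPM in WT (median 112 CPM), at 93.3, 81.3 and 41.0 CPM in G34R, at 121, 134 and 140 CPM in G34V and at 147 and 156 CPM in G34W. The difference in G34R of -0.60 (SE 0.284) did not pass (edgeR adjusted p = 0.299). WT replicate 3 has a library in each of the mitochondrial sets, and its Meg3 level was 69.2 CPM in the first and 123 CPM in the second. Of 31 imprinted genes with at least 100 counts in both of these libraries, 1 differed by more than 1.5-fold, and that was Meg3. Of its cluster, Rtl1 was at 1.3, Mirg at 1.24 and Rian at 0.968 times the level of the first library. Dio3 was at 2.1 and Dlk1 at 0.733 times, on at most 35 counts in either library. The second library of that animal held 0.891 times the Ndn level and 0.915 times the Rasgrf1 level of the first. Within a set, Ndn fell in G34R by 0.98 on the log2 scale (adjusted p = 0.000125) and in G34V by 0.58 (adjusted p = 0.0166), and Rasgrf1 fell by 0.38 (adjusted p = 0.00253) and by 0.33 (adjusted p = 0.0271).

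In the Peg3 cluster on chromosome 7, Usp29, a paternally expressed deubiquitinase gene, rose in G34W. WT animals ran from 20.5 to 27.2 CPM with a median of 22 CPM, and the G34W animals were at 30.7 and 29.9 CPM, above all of them. The log2 fold change was 0.42 (SE 0.0904, edgeR adjusted p = 0.0267). It was lost without either G34W animal (adjusted p = 0.156 and 0.0607) and with the runs as a block (0.0688), and passed in 12 of 19 alternatives. Peg3, a zinc finger gene whose start lies beside that of Usp29 on the other strand, was at 119% of WT in G34W (log2 difference 0.25, SE 0.116, edgeR adjusted p = 0.282), and Zim1, the maternally expressed neighbour, at 184% (0.89, SE 0.334, edgeR adjusted p = 0.185). Usp29 was at 22.4 to 25.5 CPM in G34R and G34V, inside the WT range.

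The classical growth clusters did not pass in any of the 3 substitutions. H19, the non-coding RNA of the maternal chromosome, was at 0.0449 to 0.342 CPM in all 10-week animals. Igf2, a growth factor gene grouped here as paternal, was at 27.0 ± 9.62 CPM in WT (SD, n = 6), 31.4 ± 4.95 CPM in G34R (n = 3), 34.5 ± 9.02 CPM in G34V (n = 3) and 38.4 ± 8.88 CPM in G34W (n = 2). Which copy was read in this tissue is not known from these counts. Igf2 is expressed in the choroid plexus and the meninges, whose markers ranged in WT from 152 to 941 CPM and from 47.5 to 112 CPM, and their part was not tested. Within the lower mitochondrial set alone, Igf2 and Peg10 were higher in G34R (log2 0.69, adjusted p = 0.0342, and 0.72, adjusted p = 0.00675). Cdkn1c, an inhibitor of the cell cycle, was at 81% to 86.5% of WT in G34R and G34V and did not pass (edgeR adjusted p = 0.3 and 0.576). Igf2r, the receptor that clears Igf2, was at 74.6 ± 2.3 CPM in G34R and 79.8 ± 7.20 CPM in WT. Airn, the non-coding RNA read through Igf2r from the other strand, was at most 0.696 CPM in any 10-week animal.

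By parental copy, the calls of G34R were all among the paternally expressed genes, 3 of 22 tested, with 0 of 13 maternally expressed and 0 of 6 mixed by edgeR, beside 5.61% of all genes. At an unadjusted p under 0.05 there were 5, 5 and 1, beside 3851 of all 21274 genes. DESeq2 also called Mkrn3, a paternal gene, H13, a maternal gene, and Inpp5f, a mixed gene. In G34V they were 2 of 22, 0 of 13 and 1 of 6, beside 4.25% of all genes, and in G34W 2 of 22, 1 of 13 and 0 of 6, beside 1.61%. Median log2 differences were 0.04, -0.10 and -0.07 in G34R for paternal, maternal and mixed genes, and 0.05, 0.18 and -0.13 in G34W. No difference between the copies was tested.

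Between substitutions, 3 of 41 imprinted genes were lower in G34R than in G34W and 0 higher, 7.32% against 1.88% of all genes (0.945% higher and 0.935% lower). G34R lies wholly in the lower mitochondrial set, and G34V and G34W wholly in the higher. Differences of G34R from either cannot be told apart from the library set. Ndn was at 59.9% of its G34W level (log2 -0.74, SE 0.13, edgeR adjusted p = 0.0109), Rian at 75.5% (-0.41, SE 0.0653, adjusted p = 0.00473) and Ube3a at 83.2% (-0.27, SE 0.0615, adjusted p = 0.0339). Rian was at 258 ± 9.53 CPM in G34R and 341 ± 25.7 CPM in G34W (SD), and Ube3a at 110 ± 3.18 and 132 ± 9.83 CPM, with no overlap between the animals. The Ndn call was lost without G34W replicate 1 (adjusted p = 0.0894) and with the runs as a block (0.145). Rian was lost with only the compared groups (0.0539) and with the block (0.201). Ube3a passed in 6 of 15 alternatives, and was lost with the block (0.557), without G34W replicate 2 (0.164) and without any 1 of the G34R animals (0.106, 0.0852 and 0.0731). For G34R against G34V no imprinted gene passed with edgeR, against 0.23% of all genes (0.174% higher and 0.0564% lower). An unadjusted p under 0.05 was found for 7 of 41, beside 2316 of all 21274 genes. DESeq2 called 2 and limma-voom 1. For G34V against G34W none passed, against 0.15% of all genes (0.0376% higher and 0.113% lower), with 1 call by DESeq2 and 0 by limma-voom. Here 6 of 41 had an unadjusted p under 0.05, beside 2486 of all 21274 genes. Ndn in G34V was at 70.5% of G34W (log2 -0.50, SE 0.131, edgeR adjusted p = 0.145) and passed without G34W replicate 2 (-0.69, adjusted p = 0.0294).

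At postnatal day 7, none of the 40 imprinted genes tested passed in G34R against WT with edgeR, against 0.308% of all 20451 genes (0.112% higher and 0.196% lower). Their median log2 difference was 0.04, beside 0.00 for all genes. Of the 40, 4 had an unadjusted p under 0.05, beside 1585 of all 20451 genes. DESeq2 called 1, Cdkn1c (log2 -0.49, adjusted p = 0.0495), and limma-voom 0. Ndn was at 313, 321, 349 and 311 CPM in WT and at 301, 343, 267 and 290 CPM in G34R, which overlapped, with a log2 difference of -0.10 (SE 0.0718, edgeR adjusted p = 0.838). Rasgrf1 was at 25.6, 22.8, 34.8 and 21.6 CPM in WT and at 23.7, 48.8, 21.1 and 29.8 CPM in G34R, also overlapping (edgeR adjusted p = 0.941). Magel2 was at 7.53, 7.26, 9.09 and 7.76 CPM in WT and at 4.41, 7.81, 4.81 and 4.69 CPM in G34R. G34R replicate 2 lay within the WT values and the other 3 below them, and the difference of -0.54 did not pass (edgeR adjusted p = 0.493). Without that animal it was -0.79 and passed (adjusted p = 0.0349). The same animal had the highest level of striatal, thalamic, interneuron and hypothalamic markers of the 8 (184, 58.6, 319 and 2.60 CPM), whose part was not tested.

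Whether G34R acted differently at the 2 ages was tested directly over all animals. It passed for 2 of 42 imprinted genes, 4.76% against 1.16% of all 22417 genes (0.562% higher and 0.602% lower). For Ndn the G34R effect at 10 weeks was lower than that at day 7 (log2 difference -0.80, SE 0.139, edgeR adjusted p = 0.00352), and this passed in 26 of 26 alternatives. H13, a maternally expressed gene for a signal peptide peptidase, differed by 0.30 (SE 0.0713, edgeR adjusted p = 0.0362). It was at 39.7 ± 2.01 CPM in G34R and 34.8 ± 0.899 CPM in WT at 10 weeks, and at 73.1 ± 1.87 and 78.8 ± 1.2 CPM at day 7 (SD), with no overlap at either age. Its difference passed in 13 of 26 alternatives and was lost without any 1 of 11 animals, among them all but 1 of the day-7 animals, with adjusted p up to 0.116, and with males alone (0.164). For Rasgrf1 the difference of -0.56 (SE 0.275) did not pass (edgeR adjusted p = 0.481).

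More of these genes passed with age than in any comparison of genotypes. In WT, 36 of 42 imprinted genes differed between 10 weeks and day 7, 13 higher and 23 lower at 10 weeks, which is 85.7% against 67.7% of all genes (33.3% higher and 34.4% lower). Their median log2 fold change was -0.41, beside -0.01 for all genes. The 2 ages come from separate runs of animal numbers and from labels written in a different form, so age cannot be told apart from these. With males alone, 34 of the 36 passed in the same direction, and Peg3 and Igf2r were lost (adjusted p = 0.0513 and 0.0912). Phlda2 was not tested, at 0 to 0.0566 CPM in all animals.

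**Figure D4:**
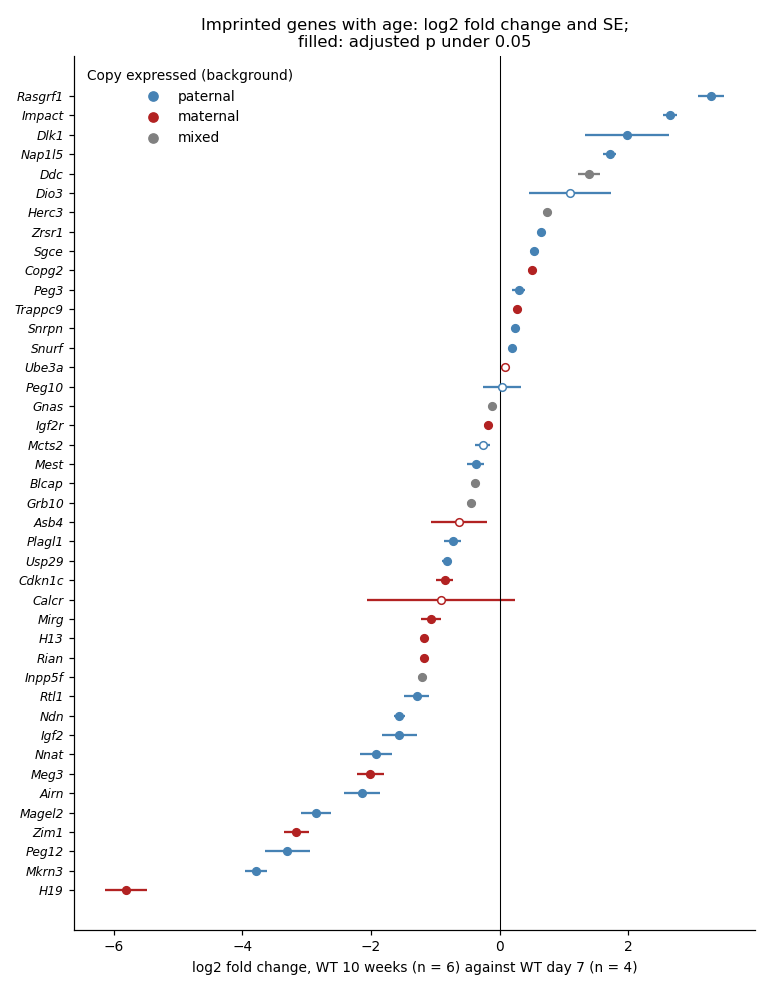
Log2 fold change with SE (x axis) of WT cortex at 10 weeks (n = 6) against day 7 (n = 4) for 42 imprinted genes, ordered by size and coloured by the parental copy mainly expressed. Filled points passed an adjusted p of 0.05, with 23 genes lower and 13 higher at 10 weeks, from H19 at -5.80 to Rasgrf1 at 3.29.

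Around Ndn the fall with age was steep. Ndn itself went from 323 ± 17.5 CPM to 110 ± 12.5 CPM (SD, log2 -1.56, edgeR adjusted p = 3.55e-13). Mkrn3 fell to 7.24% of its day-7 mean (log2 -3.78, edgeR adjusted p = 2.09e-15) and Magel2 to 14.4% (-2.85, edgeR adjusted p = 1.44e-10). Peg12 fell with them, from 1.24 CPM to 0.119 CPM. Snrpn and Snurf rose slightly, to 118% and 115%, and Ube3a was at 106% and did not pass (edgeR adjusted p = 0.241).

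H19 fell furthest, from 8.97 ± 3.32 CPM to 0.162 ± 0.0803 CPM (SD, log2 -5.80, SE 0.326, edgeR adjusted p = 6.43e-13), and Igf2 fell from 78.5 to 27.0 CPM. Fibroblast markers of the meninges and vessels summed to 109 to 288 CPM at day 7 and 47.5 to 112 CPM at 10 weeks in WT, and choroid plexus markers to 2.92 to 452 CPM and 152 to 941 CPM. Their part in the fall of H19 and Igf2 was not tested. Zim1 of the Peg3 cluster fell to 11.5% (log2 -3.16, edgeR adjusted p = 5.08e-13), Usp29 to 56.8%, while Peg3 rose to 123%. In the Dlk1-Dio3 cluster Meg3 fell to 24.9%, Rian to 44.4% (log2 -1.18, edgeR adjusted p = 7.19e-17), Mirg to 48% and Rtl1 to 41.8%. Dlk1 rose from 0.251 to 1.08 CPM with overlapping animals, and Dio3, the enzyme that inactivates thyroid hormone, did not pass (edgeR adjusted p = 0.135). Nnat, a small membrane protein gene, fell to 26.5%, and Blcap, in which it lies, to 77.3%. H13 fell to 44.2% (log2 -1.18, edgeR adjusted p = 6.88e-17) and Inpp5f to 43.7% (-1.20, edgeR adjusted p = 1.49e-13).

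Of the genes that rose with age, Rasgrf1 rose most, from 26.2 ± 5.98 to 256 ± 15.5 CPM (SD, log2 3.29, SE 0.202, edgeR adjusted p = 7.34e-11). Impact, a regulator of translation, rose from 50.1 ± 7.84 to 316 ± 18.5 CPM (log2 2.65, edgeR adjusted p = 5.61e-16). Nap1l5, a histone chaperone family gene, rose to 329% (log2 1.71, edgeR adjusted p = 5.01e-13), and Herc3, within whose span it lies, to 167% (0.73, edgeR adjusted p = 8.09e-11). Ddc, the enzyme of dopamine and serotonin synthesis, rose to 264%. Among paternally expressed genes 9 rose and 11 fell of 23 tested, among maternally expressed genes 2 rose and 8 fell of 13, and among mixed genes 2 rose and 4 fell of 6, beside 33.3% higher and 34.4% lower over all genes.

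Levels can be compared between genes only per length. In WT at 10 weeks Snrpn was the most abundant, at 119 CPM per kb of exon, then Nap1l5 at 113, Gnas at 73.5, Impact at 61.6, Nnat at 45.3 and Ndn at 29.7 CPM per kb. Rasgrf1 was at 23.2 CPM per kb, Ube3a at 5.63, Rtl1 at 0.534, Magel2 at 0.246 and H19 at 0.066 CPM per kb. The mean for Snrpn counts the gene as annotated, and its reads cannot be separated from those of Snurf. Its exon length of 5216 bases is that of the entry named Gm38393 in the GENCODE M21 annotation, where Snurf had no entry. Lengths joined all annotated exons of a gene, so the order depends on the annotation.

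Other imprinted genes, a second list of which 41 were tested, gave 3 higher and 2 lower in G34R at 10 weeks, 12.2% beside 5.61% of all genes. Imprinting can be limited to some tissues, and whether these genes are imprinted in cortex was not examined. In G34V and in G34W 1 of the 41 was called, 2.44% beside 4.25% and 1.61% of all genes. Higher were Osbpl5 (30.8 against 25.4 CPM, log2 0.28, SE 0.0587), Cd81 (295 against 244 CPM, 0.27, SE 0.0582) and Dact2 (74.1 against 59.5 CPM, 0.31, SE 0.0761). Lower were Adam23 (177 against 210 CPM, -0.24, SE 0.0615) and Ppp1r9a (409 against 486 CPM, -0.25, SE 0.0689). By edgeR, the adjusted p-values were 0.00749, 0.00774, 0.0198, 0.0248 and 0.0405 in that order. Osbpl5 also passed in G34V (0.24, edgeR adjusted p = 0.0248). Sfmbt2, a Polycomb protein gene, rose in G34W from 3.94 to 8.56 CPM (log2 1.12, SE 0.161, edgeR adjusted p = 0.00264) and was lower in both G34R (-0.93, adjusted p = 0.0188) and G34V (-1.13, adjusted p = 0.017) than in G34W.

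A list of imprint regulators was broad, and held Tet1 and Kdm2b beside genes that set or keep imprints. Of its 31 tested genes, 1 was higher and 2 were lower in G34R, 9.68% beside 5.61% of all genes. In G34V 1 was higher and 1 lower, 6.45% beside 4.25%. In G34W 0 passed with edgeR, beside 1.61%, with 1 called by DESeq2 and 0 by limma-voom. At an unadjusted p under 0.05 there were 4 of 31 in G34W, beside 3647 of all 21274 genes. Kdm2b, a histone demethylase that binds unmethylated CG sites, was higher in G34R (20.9 against 17.7 CPM, edgeR adjusted p = 0.04) and in G34V (21.6 CPM, 0.016). Tet1, which oxidises methylated cytosine, was lower in both (15.3 and 15.2 against 18.4 CPM, edgeR adjusted p = 0.0379 and 0.0429). Zfp57 was lower in G34R (0.887 against 1.54 CPM, edgeR adjusted p = 0.048), with overlapping animals. With age, 24 of the 31 fell and 5 rose in WT, 93.5% beside 67.7% of all genes. Those that fell included Dnmt3a to 18.5%, Tet1 to 21.1%, Kdm2b to 23.1% and Zfp57 to 4.97% of the day-7 level.

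The strand setting of the counting is not given in the sources used here, so reads of genes that overlap, such as Igf2r and Airn, Nnat and Blcap, Mest and Copg2, Nap1l5 and Herc3, or Mcts2 and H13, may not be fully separated. Replicates were separate animals by their numbers in the titles.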

How the data were processed

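The authors deposited unnormalised counts per gene for 23 libraries of mouse cortex. The build is mm10, and featureCounts 1.4.4, STAR 2.3.0e, Trimmomatic 0.32 and bedtools 2.27.1 are named with no roles, per the submitters' processing notes. Strand setting and annotation release: not given in the sources used here. Groups follow the genotype and age labels. The 2 libraries of WT replicate 3 at 10 weeks came from 1 animal and were summed, leaving 22 animals.

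Members were matched by symbol, and positions came from GENCODE M21, in which 37607 genes had an entry and 1410 had none. Y-linked genes, Xist and Tsix were removed. Tests used edgeR 4.0.16 (quasi-likelihood, robust, TMM scaling, filterByExpr) in R 4.3.3, with Benjamini-Hochberg adjustment over all genes and a threshold of 0.05. The 10-week fit held 14 animals (21274 genes, 10 residual degrees of freedom), the day-7 fit 8 animals and a sex term (20451 genes, 5 degrees of freedom), and the fit of 22 animals, used for age and for how the G34R effect differs between ages, 22417 genes (16 degrees of freedom). The SE is the log2 fold change divided by the square root of F.

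Alternatives were RLE scaling, no filter, a filter of 1 CPM in 2 animals, limma-voom (limma 3.58.1), DESeq2 1.42.0, only the compared groups, runs of animal numbers as a block, sex as a covariate or left out, only males, only the WT and G34R groups, mitochondrial and rRNA genes left out, the 2 libraries kept apart and each animal left out. The comparison within 1 mitochondrial library set was chosen after seeing the data. On simulated counts, 99% of genes changed 2-fold and 53% of those changed 1.5-fold were recovered for G34R at 10 weeks, 93% and 43% for G34W, and 99% and 64% for G34R at day 7. Of the simulated calls, 6.75%, 7.48% and 4.68% in that order were genes that had not been changed. The simulation gave every gene the same spread between animals (coefficient of variation 0.137) and changed only genes of at least 1 CPM. It does not give the recovery for genes that vary more or lie lower.

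Members past the threshold against WT are given in every animal. Those called in other comparisons are given by group means, up to 12 per comparison by adjusted p, and up to 6 per comparison of the other lists. Further members were named after their values were seen. The members and lists were chosen with earlier results of these data known.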

Additional observations from a re-analysis of the deposited data

Results flagged for a closer look

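Dixon's criterion was applied to WT at 10 weeks (n = 6) and to WT and G34R at day 7 (n = 4 each). The 10-week mutant groups were too small and were not examined. In 13 of 126 gene and group pairs an animal was set apart from the rest, where chance flags about 1 in 20. Day-7 G34R replicate 2 was the highest animal in 7 of them. It was at 7.81 CPM for Magel2 (next 4.81), 0.929 for Dlk1 (next 0.183), 1.75 for Dio3 (next 0.359), 38.0 for Zrsr1 (next 35.2), 28.2 for Peg10 (next 11.7), 2.37 for Calcr (next 0.144) and 93.5 for Nap1l5 (next 64.9). WT replicate 2 at 10 weeks was the highest in 4, at 392 CPM for Peg3 (next 305), 27.2 for Usp29 (next 22.9), 19.9 for Peg10 (next 12.3) and 0.647 for Calcr (next 0.115). Without that animal Peg10 was higher than WT in G34R (log2 0.60, adjusted p = 0.00736) and in G34W (log2 0.71, adjusted p = 0.0217). Day-7 WT replicate 3 was at 444 CPM for Nnat (next 274), and day-7 G34R replicate 4 was the lowest for Mcts2 at 4.53 CPM (next 6.36). The G34R effect differed between 10 weeks and day 7 for Ndn (log2 -0.80, edgeR adjusted p = 0.00352) and for H13 (log2 0.30, edgeR adjusted p = 0.0362).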

How the results depend on the processing

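None of the genes called changed direction in the alternatives run. Genes not called were not followed in this way. Counts of imprinted genes called stayed within 1.5 times the reported count in 133 of 165 alternatives, and the 36 age calls passed in 642 of 648. The 14 calls of genotype, or of its difference between ages, passed in 212 of 274. For G34R against WT at 10 weeks (reported 3), DESeq2 called 6, and leaving out 1 animal gave 1 to 3, the 1 being Ndn without G34R replicate 2. For G34V (reported 3), the replicate block by runs of animal numbers gave 1, Rasgrf1, and leaving out 1 animal 2 to 3. For G34W (reported 3), limma-voom, only the compared groups, the replicate block and the comparison within 1 library set each gave 0, DESeq2 gave 6, and leaving out 1 animal 0 to 4, the 0 without G34W replicate 1. G34R against G34V (reported 0) gave 1 with limma-voom, 1 with only the compared groups and 2 with DESeq2. G34R against G34W (reported 3) gave 8 with DESeq2 and 0 with the replicate block. G34V against G34W (reported 0) gave 1 with DESeq2, 1 with the sex label as a covariate, and 0 to 1 without 1 animal. G34R at day 7 (reported 0) gave 1 with DESeq2 and 0 to 1 without 1 animal, the 1 being Magel2 without G34R replicate 2. The difference of effects between ages (reported 2) gave 1 with no filter, 5 with DESeq2 and 1 to 3 without 1 animal, with Ndn called in 26 of 26. The cause of these shifts was not tested. With 2 G34W animals, leaving 1 out assumes that the lone animal varies like the other groups. No paired analysis was possible because the labels give no replicate numbers shared between groups, and the block used runs of animal numbers instead, with a block value of 2 for G34R. Genes under about 1 CPM, such as Peg12, Phlda2, Calcr and H19 at 10 weeks, are limited by depth.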

Other observations

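Of the other imprinted genes, 14 rose and 16 fell of 41 between day 7 and 10 weeks in WT, 73.2% beside 67.7% of all genes. Atp10a, a lipid flippase beside Ube3a, was not among the 6 with the smallest adjusted p and was chosen after its values were seen. It rose from 2.42 to 10.5 CPM (log2 2.11, SE 0.162, edgeR adjusted p = 4.22e-11), while Ube3a was at 106% of its day-7 level. Slc22a3, an organic cation transporter of the Igf2r cluster, fell from 9.72 to 1.62 CPM (log2 -2.58, SE 0.147, edgeR adjusted p = 1.11e-13), and Ppp1r9a, an actin-binding protein of synapses, rose from 211 to 486 CPM (log2 1.20, SE 0.062, edgeR adjusted p = 1.75e-14).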
